A study of Mus musculus with 15 samples.

Results

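The vascular endothelial growth factor (VEGF) family was followed in mouse hearts through 10 genes: the ligands Vegfa, Vegfb, Vegfc, Figf (now named Vegfd) and Pgf, the receptor tyrosine kinases Flt1, Kdr and Flt4, and the neuropilin co-receptors Nrp1 and Nrp2. They were taken as every probe of the array whose gene name is one of these symbols, which gave 20 of 41174 probes and 10 of 27845 gene names. The hearts came from 3 groups of mice on the C57BL/KLS background. Treated db/db mice (C57BL/KLS-leprdb/leprdb) received rosiglitazone, an agonist of the nuclear receptor PPARγ, in their chow at 5 mg/kg per day, untreated db/db mice carried the same homozygous leptin receptor mutation and no drug, and db/+ mice (C57BL/KLS-leprdb/lepr+) were the heterozygous, non-diabetic controls. Whole hearts were taken after 4 months with or without treatment, and each of 15 hearts, 5 a group, was labelled with Cy5 and hybridized beside a universal mouse reference RNA labelled with Cy3. Every level is therefore a log2 ratio of heart to reference for 1 probe, with equal signal at 0, and levels of different probes are not on a shared scale. The age of the mice is not given in the sources used here.

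VEGF ligands are secreted dimers that bind receptor tyrosine kinases on endothelial cells. Vegfa acts mainly through Kdr on blood vessels, Vegfb and Pgf bind Flt1, and Vegfc and Figf bind Flt4, the receptor of lymphatic endothelium. Vegfc also binds Kdr after proteolytic processing. Neuropilins bind both VEGF ligands and class 3 semaphorins and present them to their signalling receptors. In the heart, cardiomyocytes are a main source of Vegfa and Vegfb, and capillary endothelium carries most of the receptors.

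Between treated replicates 3 and 4 the differences in log2 heart signal had a spread of 0.115, against 0.233 to 0.569 for the other pairs of the same group. The spread is the scaled median absolute deviation over probes, which leaves out a shift of a whole array. In the reference channel 99 of 105 pairs of arrays had a spread at least as large. Treated replicates 3 and 4 were counted as 1 sample, so the comparisons held 4 treated db/db, 5 untreated db/db and 5 db/+ samples. The 15 arrays lay on 4 slides: db/+ replicates 1 to 4 on the first, db/+ replicate 5 with untreated replicates 1 to 3 on the second, untreated replicates 4 and 5 with treated replicates 1 and 2 on the third, and the rest of the treated hearts on the fourth. Of all probes, 56.4% to 75.6% had a heart signal well above background on an array. The probe of Lepr, the mutated gene, had a log2 difference of -0.82 in untreated db/db hearts from db/+ controls (adjusted p = 0.15). RNA of whole tissue does not tell fewer cells of a type from less RNA per cell.

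Of the 20 probes, 18 were bright enough to test, and each of the 10 genes had at least 1 of them. The other 2, a probe of Flt1 (A_52_P650151) and a probe of Kdr (A_52_P478193), were above background on 0 of 15 arrays. Set against db/+ controls, untreated db/db hearts had 4 of the 18 probes past an adjusted p of 0.05 (22.2%), where 7.76% of the 27593 tested probes passed (4.37% higher and 3.39% lower), and with 18 probes of 10 genes no more was read from that share. Pgf was higher, and Vegfc, Nrp2 and 1 of the 3 Nrp1 probes were lower. Treated db/db hearts had 4 of 18 past it against the same controls, where 8.7% of all tested probes passed (4.49% higher and 4.21% lower): Figf and Pgf were higher, and Vegfc and Nrp2 were lower. For treatment, set against untreated db/db, 0 of 18 passed, as did 0% of all tested probes, while 8.78% of these and 1 of the members, a Vegfb probe, had an unadjusted p under 0.05. The comparisons share groups, so they do not count as independent of each other.

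**Figure D1:**
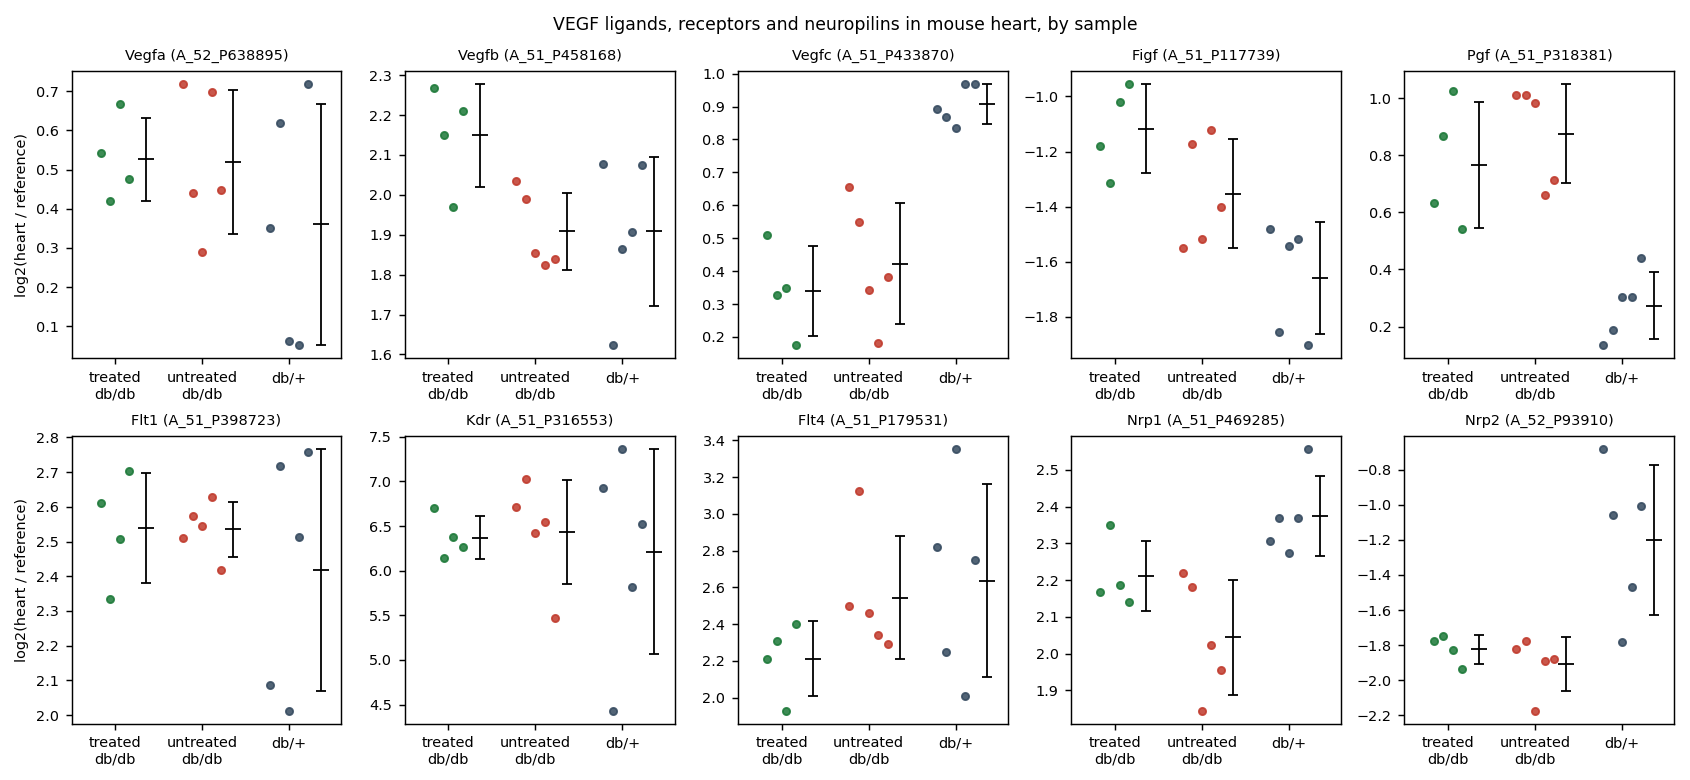
Log2 ratio of heart to reference (y axis, its own scale in each panel) of the brightest tested probe of each gene in treated db/db, untreated db/db and db/+ hearts (x axis), a point a sample, with the mean and SD beside the points. The Vegfc points of both db/db groups, up to 0.65, lie below all db/+ points, which start at 0.83, and the Pgf points of both lie above all db/+ points.

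The genes called at the only probe that carries their symbol are shown here with the promoter that RefSeq annotates on GRCm38.p6, as 300 bases around the start of the gene. Capitals mark GGGCGG (the GC box that Sp factors bind) and TATAAA (the letters of the TATA element) on either strand. ACGTG, the core that hypoxia-inducible factors bind, was searched too and occurred in none of these 4.
Vegfc, chr8:54077282-54077581, plus strand: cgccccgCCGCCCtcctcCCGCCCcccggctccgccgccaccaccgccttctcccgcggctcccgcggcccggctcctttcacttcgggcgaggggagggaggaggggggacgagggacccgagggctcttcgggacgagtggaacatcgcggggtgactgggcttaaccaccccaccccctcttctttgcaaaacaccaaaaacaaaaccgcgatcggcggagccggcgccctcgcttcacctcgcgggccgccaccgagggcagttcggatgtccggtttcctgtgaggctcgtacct
Nrp2, chr1:62703067-62703366, plus strand: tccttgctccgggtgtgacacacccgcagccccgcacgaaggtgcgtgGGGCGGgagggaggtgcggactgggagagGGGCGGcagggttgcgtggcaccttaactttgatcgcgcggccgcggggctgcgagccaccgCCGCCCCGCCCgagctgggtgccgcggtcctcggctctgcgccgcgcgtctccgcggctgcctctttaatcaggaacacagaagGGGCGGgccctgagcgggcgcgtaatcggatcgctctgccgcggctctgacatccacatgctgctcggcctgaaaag
Pgf, the upstream of its 2 annotated promoters, chr12:85177264-85177563, minus strand: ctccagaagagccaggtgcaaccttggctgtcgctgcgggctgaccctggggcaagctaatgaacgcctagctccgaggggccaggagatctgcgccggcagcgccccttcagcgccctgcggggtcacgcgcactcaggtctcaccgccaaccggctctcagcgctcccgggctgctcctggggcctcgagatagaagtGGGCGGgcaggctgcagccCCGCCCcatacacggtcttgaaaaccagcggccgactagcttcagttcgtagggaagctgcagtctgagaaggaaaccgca
Figf, chrX:164373272-164373571, plus strand: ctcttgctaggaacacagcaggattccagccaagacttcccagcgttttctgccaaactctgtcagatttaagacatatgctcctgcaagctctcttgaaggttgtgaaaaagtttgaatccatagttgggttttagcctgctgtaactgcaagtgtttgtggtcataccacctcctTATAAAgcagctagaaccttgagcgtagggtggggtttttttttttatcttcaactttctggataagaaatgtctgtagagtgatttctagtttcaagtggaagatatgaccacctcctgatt
The promoters of Vegfc and Nrp2, which were lower in both db/db groups, were 70.3% and 70.7% G and C and held 2 and 5 GC boxes, some of them overlapping. That of Pgf was 66.0% G and C with 2 GC boxes. That of Figf was 42.0% G and C, with no GC box and 1 TATA element. The promoter of Nrp1, which was lower at 1 of its 3 probes in untreated db/db hearts and is not printed, was 64.0% G and C with 1 GC box. Across the 12 promoters of the 10 genes, 10 held a GC box, 2 the TATA element and 1, a downstream promoter of Vegfa, the hypoxia core, and of 32851 mouse promoters of the same length 35.7%, 13.6% and 19.6% held them. A match of letters is a description and no sign of a bound factor.

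Vegfc, the ligand that drives lymphatic growth through Flt4, was lower in both db/db groups. Its probe A_51_P433870 (chromosome 8, 55684877 to 55684936, plus strand, mouse build mm8) gave log2 ratios of 0.51, 0.33, 0.35 and 0.17 in treated db/db hearts, 0.65, 0.55, 0.34, 0.18 and 0.38 in untreated db/db hearts and 0.89, 0.87, 0.83, 0.97 and 0.97 in db/+ hearts. Every db/db sample was below every db/+ sample, and the db/+ hearts were the closest together, with an SD of 0.06 against 0.14 in treated and 0.18 in untreated db/db hearts. Relative to db/+ controls, the level was 1.48-fold lower in treated db/db hearts (log2 difference -0.57, SE 0.10, adjusted p = 0.0062) and 1.40-fold lower in untreated db/db hearts (-0.48, SE 0.10, adjusted p = 0.010). Treated and untreated db/db hearts overlapped, with a difference of -0.082 and a 95% interval of -0.30 to 0.14. On the slide that untreated db/db hearts shared with db/+ replicate 5 alone, the log2 difference was -0.45. With the background corrected by normexp and the dyes by loess, the differences shrank to -0.33 in treated (adjusted p = 0.18) and -0.24 in untreated db/db hearts (adjusted p = 0.25), and neither passed.

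Pgf, placental growth factor, a ligand of Flt1 that is scarce in most healthy adult tissues, went the other way. Probe A_51_P318381 (chromosome 12, from 86056488 to 86058490, minus strand, a span wider than the probe) gave 0.63, 0.87, 1.03 and 0.54 in treated db/db hearts, 1.01, 1.01, 0.98, 0.66 and 0.71 in untreated db/db hearts and 0.13, 0.19, 0.30, 0.30 and 0.44 in db/+ hearts. All 9 db/db samples lay above all 5 db/+ samples, and the lowest treated heart, at 0.54, was the nearest to them. Relative to db/+ controls, the level was 1.41-fold higher in treated db/db hearts (log2 difference 0.49, SE 0.12, adjusted p = 0.025) and 1.52-fold higher in untreated db/db hearts (0.60, SE 0.11, adjusted p = 0.0074), while treated against untreated db/db hearts gave -0.11 with an interval of -0.37 to 0.15. Within the slide that untreated db/db hearts shared with db/+ replicate 5 alone, the difference was 0.56. The difference in treated hearts lost its call without treated replicate 2 (adjusted p = 0.071) or 3-4 (adjusted p = 0.074).

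Figf, the second ligand of Flt4 besides Vegfc, was measured by A_51_P117739 (chromosome X, 159746568 to 159746627, plus strand). It gave -1.18, -1.31, -1.02 and -0.95 in treated db/db hearts, -1.55, -1.17, -1.52, -1.12 and -1.40 in untreated db/db hearts and -1.48, -1.85, -1.54, -1.52 and -1.90 in db/+ hearts. The treated hearts were all above the db/+ hearts, and the untreated hearts lay across both. Its means were -1.12 ± 0.16 in treated db/db, -1.35 ± 0.20 in untreated db/db and -1.66 ± 0.20 in db/+ hearts (SD, n = 4, 5 and 5). The rise over db/+ hearts was 1.46-fold in treated db/db hearts (log2 difference 0.54, SE 0.13, adjusted p = 0.023). In untreated db/db against db/+ controls the difference was 0.31 with an interval of 0.04 to 0.57 (adjusted p = 0.14), and in treated against untreated hearts 0.24 with an interval of -0.04 to 0.52 (adjusted p = 0.65), so neither neighbouring pair in this order of levels was told apart. Treated and db/+ hearts shared no slide, and the call in treated hearts was lost without treated replicate 1, 3-4 or 5 (adjusted p 0.051, 0.064 and 0.074) and with normexp and loess (difference 0.18, adjusted p = 0.59).

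Vegfa, the main blood vessel ligand, had 3 probes, and none of them passed in any comparison. Its brightest, A_52_P638895, gave 0.54, 0.42, 0.67 and 0.48 in treated db/db hearts, 0.72, 0.44, 0.29, 0.70 and 0.45 in untreated db/db hearts and 0.35, 0.62, 0.06, 0.05 and 0.72 in db/+ hearts. The groups overlapped fully, and db/+ replicates 3 and 4 were lowest. Over the 3 probes, the difference was 0.12 to 0.17 in treated db/db against db/+ controls, 0.10 to 0.29 in untreated db/db against db/+ controls and -0.17 to 0.03 in treated against untreated hearts. The intervals for the brightest probe were -0.15 to 0.48, -0.14 to 0.46 and -0.31 to 0.33, in the same order. Vegfb, a ligand of Flt1 that is abundant in heart muscle, had 2 probes. A_51_P458168 gave 2.15 ± 0.13 in treated db/db, 1.91 ± 0.10 in untreated db/db and 1.91 ± 0.19 in db/+ hearts (SD, n = 4, 5 and 5), with treated against untreated hearts at 0.24 (unadjusted p = 0.040, adjusted p = 0.55). The other, A_52_P436628, gave 1.95 ± 0.05, 2.01 ± 0.04 and 1.81 ± 0.26 in the same order of groups, with treated against untreated hearts at -0.061, so the 2 Vegfb probes differed in direction.

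**Figure D2:**
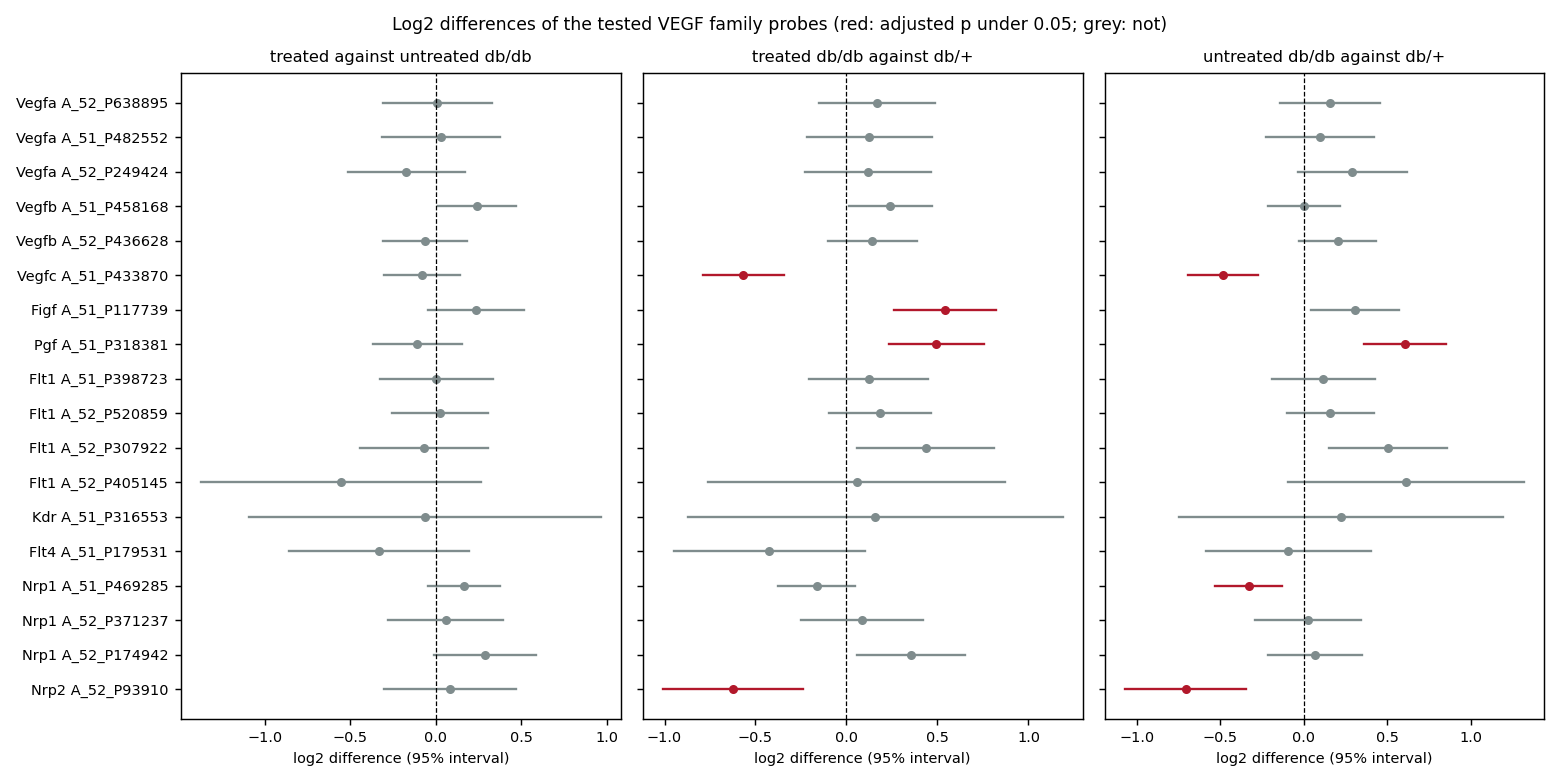
Log2 difference (x axis, point, with its 95% interval as a line) of each of the 18 tested probes (y axis) in treated against untreated db/db, treated db/db against db/+ and untreated db/db against db/+ hearts. Red marks the 0, 4 and 4 probes with an adjusted p under 0.05, and the intervals of Kdr and of the Flt1 probe A_52_P405145 are the widest.

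None of the receptor tyrosine kinases passed in any comparison with the deposited normalization. With normexp and loess, Kdr (1.83, adjusted p = 0.047) and the Flt1 probe A_52_P307922 (1.31, adjusted p = 0.048) passed as higher in untreated db/db against db/+ controls. Flt1, which binds Vegfa, Vegfb and Pgf and also exists as a soluble decoy, had 4 tested probes. The pair made from its reference transcript, A_51_P398723 and A_52_P520859, differed by 0.12 and 0.18 in treated db/db against db/+ controls and by 0.12 and 0.16 in untreated db/db against db/+ controls. A_52_P307922, made from the cDNA BC029674 (chromosome 5, 147948554 to 147948613, minus strand), gave 3.13, 2.83, 2.93 and 3.11 in treated db/db hearts, 3.04, 2.89, 3.76, 2.98 and 2.66 in untreated db/db hearts and 2.68, 2.69, 2.40, 2.48 and 2.58 in db/+ hearts. All treated hearts were above all db/+ hearts, and untreated replicate 5 fell among the db/+ hearts while untreated replicate 3 stood above every other sample. The difference was 0.44 in treated db/db against db/+ controls (interval 0.06 to 0.81, adjusted p = 0.13) and 0.50 in untreated db/db against db/+ controls (interval 0.15 to 0.86, adjusted p = 0.076), so this probe missed the threshold. The last tested Flt1 probe, A_52_P405145, was dim, with heart signals of 21.5 to 88.5, and its treated mean rested on 3 samples because the spot of treated replicate 5 carried an outlier flag.

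Counting groups that did not overlap, 3 of the 18 probes separated in untreated db/db against db/+ controls (Vegfc, Pgf and Nrp1 A_51_P469285; 7.81% of all tested probes), 4 in treated db/db against db/+ controls (Vegfc, Figf, Pgf and Flt1 A_52_P307922; 14.6% of all), and 0 in treated against untreated hearts (4.58% of all).

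Kdr, the receptor through which Vegfa acts on blood vessels, had the most scattered ratio. A_51_P316553, spotted 10 times on each array, gave 6.70, 6.14, 6.38 and 6.27 in treated db/db hearts, 6.71, 7.03, 6.42, 6.54 and 5.47 in untreated db/db hearts and 6.93, 4.43, 7.36, 5.82 and 6.52 in db/+ hearts. The db/+ hearts spanned the whole range of the other groups and more, although the SD between the spots of an array was only 0.05 to 0.15. The reference channel spread more widely than the heart channel. The heart signal of Kdr was 13218 to 41784 across the arrays and the reference signal 80.4 to 1604, with the highest reference signal on the array of db/+ replicate 2, whose ratio was the lowest, and the lowest on that of db/+ replicate 3, whose ratio was the highest. On the heart channel alone, scaled to the 75th percentile of each array, Kdr was 3.70 ± 0.17 in treated db/db, 3.46 ± 0.18 in untreated db/db and 3.45 ± 0.43 in db/+ hearts (log2, SD, n = 4, 5 and 5). Treated against untreated hearts then differed by 0.25 (adjusted p = 0.62) and untreated db/db against db/+ controls by 0.0037 (adjusted p = 0.99), where the deposited ratio gave 0.22 (adjusted p = 0.80) and normexp with loess 1.83.

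Flt4, the lymphatic receptor of Vegfc and Figf, was dimmer, with a heart signal of 78.6 to 346 and a reference well above background on 6 of 15 arrays. Its probe A_51_P179531 gave 2.21, 2.31, 1.93 and 2.40 in treated db/db hearts, 2.50, 3.13, 2.46, 2.34 and 2.29 in untreated db/db hearts and 2.82, 2.25, 3.35, 2.01 and 2.75 in db/+ hearts. The groups overlapped, and the arrays of treated replicates 3 and 4, whose heart profiles were nearly the same, read 1.06 and 2.80 with heart signals of 231 and 199 against reference signals of 111 and 28.6. The difference of treated db/db from db/+ controls was -0.42 (interval -0.95 to 0.10, adjusted p = 0.29) by ratio and 0.32 (adjusted p = 0.40) on the heart channel alone, so the direction differed with the scale.

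**Figure D3:**
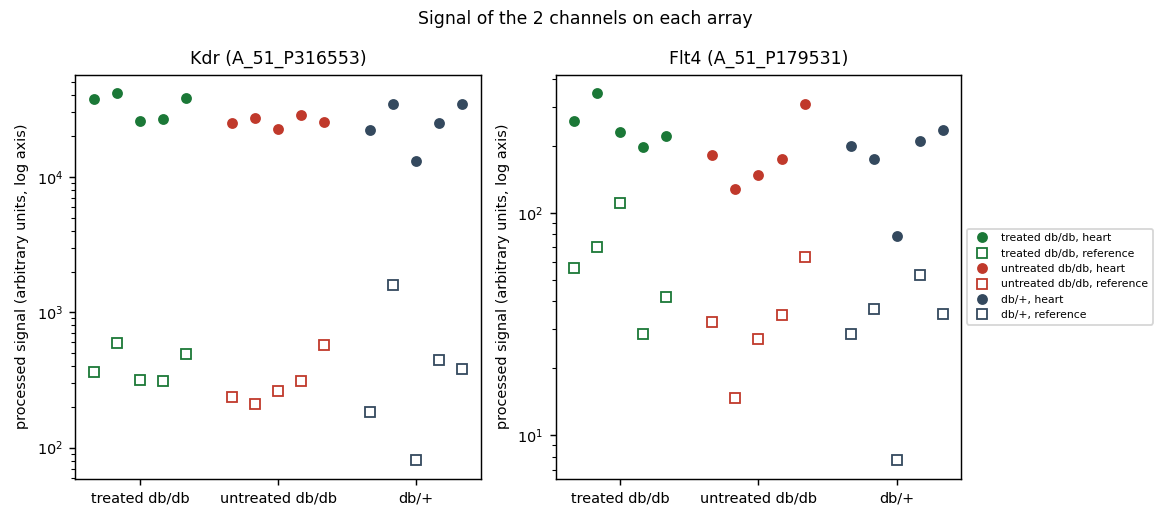
Processed signal (y axis, arbitrary units, log axis) of the Kdr and Flt4 probes on each of the 15 arrays, grouped as treated db/db, untreated db/db and db/+, with filled circles for the heart and open squares for the reference RNA. For Kdr the heart points lie between 13218 and 41784 while the reference points run from 80.4 to 1604.

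Nrp2, the co-receptor that pairs with Flt4 for Vegfc, was lower in both db/db groups. A_52_P93910 (chromosome 1, 62752831 to 62752890, plus strand) gave -1.78, -1.75, -1.83 and -1.94 in treated db/db hearts, -1.82, -1.78, -2.17, -1.89 and -1.88 in untreated db/db hearts and -0.68, -1.06, -1.79, -1.47 and -1.01 in db/+ hearts. The 9 db/db samples lay close together, the db/+ hearts spread over a log2 unit, and db/+ replicate 3 sat among the db/db values, so the groups overlapped through that 1 heart. Relative to db/+ controls, the level was 1.54-fold lower in treated db/db hearts (log2 difference -0.62, SE 0.18, adjusted p = 0.047) and 1.63-fold lower in untreated db/db hearts (-0.71, SE 0.17, adjusted p = 0.024). The second call was lost without untreated replicate 3 (-0.64, adjusted p = 0.061), and the first without any 1 of the 4 treated samples or of db/+ replicates 1, 2, 4 and 5 (adjusted p 0.053 to 0.12). On the slide that untreated db/db hearts shared with db/+ replicate 5 alone, the difference was -0.92.

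Nrp1, the co-receptor that pairs with Kdr for Vegfa, passed at 1 of its 3 probes, and only in untreated db/db against db/+ controls. The first and second are shown because both were made from its reference transcript and yet differed in their call:
Nrp1 A_51_P469285, chr8:131388840-131388899 in mm8, plus strand: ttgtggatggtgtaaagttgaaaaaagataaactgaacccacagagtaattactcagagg
Nrp1 A_52_P371237, chr8:131354463-131354522 in mm8, plus strand: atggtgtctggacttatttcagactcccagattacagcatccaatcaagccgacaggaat
A_51_P469285 gave 2.17, 2.35, 2.19 and 2.14 in treated db/db hearts, 2.22, 2.18, 1.85, 2.02 and 1.96 in untreated db/db hearts and 2.31, 2.37, 2.27, 2.37 and 2.56 in db/+ hearts. The untreated db/db hearts lay below all db/+ hearts by a narrow gap, and the treated hearts reached into both. Untreated db/db against db/+ controls differed by -0.33 (SE 0.09, adjusted p = 0.045), or 1.26-fold lower, and treated db/db against db/+ controls by -0.16 (interval -0.37 to 0.05, adjusted p = 0.30). A_52_P371237 differed by 0.026 in untreated db/db against db/+ controls (interval -0.29 to 0.34, adjusted p = 0.94) and by 0.083 in treated db/db against db/+ controls (adjusted p = 0.77). A_52_P174942, made from the cDNA AK040447, differed by 0.066 in untreated db/db against db/+ controls (interval -0.21 to 0.35, adjusted p = 0.79). In treated db/db against db/+ controls it differed by 0.35 (interval 0.06 to 0.65, adjusted p = 0.12). The call at A_51_P469285 was lost without any 1 of db/+ replicates 2 to 5 or untreated replicates 3 to 5 (adjusted p 0.051 to 0.10), and with normexp and loess its sign turned, to 0.41 (adjusted p = 0.42).

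**Figure D4:**
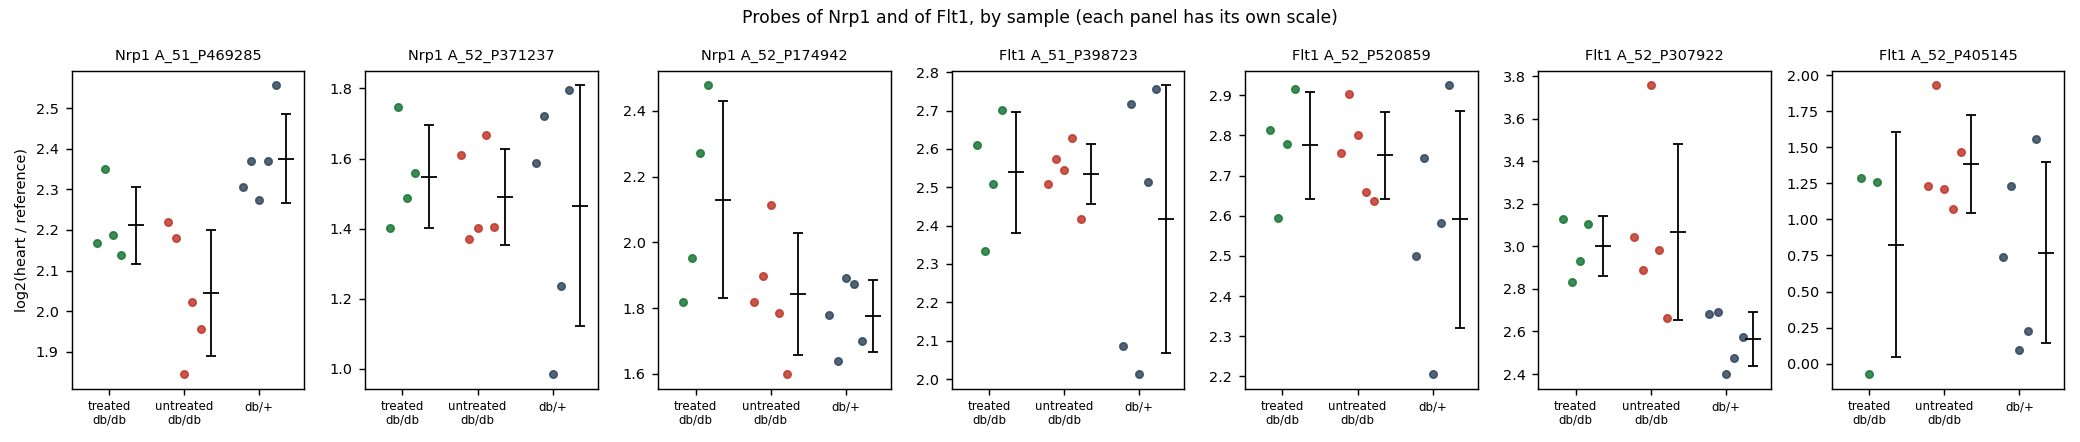
Log2 ratio of heart to reference (y axis, its own scale in each panel) at the 3 probes of Nrp1 and the 4 tested probes of Flt1 in treated db/db, untreated db/db and db/+ hearts (x axis), with mean and SD beside the points. At Nrp1 A_51_P469285 all 5 untreated db/db hearts lie below the db/+ hearts, and at the other Nrp1 probes the groups overlap.

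With slide as a term of the fit, which leaves the untreated to db/+ difference to 1 shared slide, 0 of 18 probes passed in each comparison, while 0.123%, 0.00362% and 0.0145% of all probes passed for untreated db/db against db/+, for treatment, and for treated db/db against db/+. The differences of Vegfc, Pgf, Nrp1 and Nrp2 in untreated db/db hearts kept their signs there, at -0.45, 0.56, -0.47 and -0.92. These equal the differences within the shared slide, where db/+ replicate 5 was the only control, so they are not a separate result. Slide and group were largely confounded and could not be told apart further.

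Among the genes that act on VEGF ligands outside the cell, Ccbe1 and Adamts3, the cofactor and the protease that cleave Vegfc into its active form, were higher in both db/db groups. Ccbe1 averaged 0.0033 in treated db/db, -0.23 in untreated db/db and -0.81 in db/+ hearts (means of log2 ratios), with differences from db/+ hearts of 0.81 (SE 0.14, adjusted p = 0.0051) in treated and 0.58 (SE 0.14, adjusted p = 0.022) in untreated db/db hearts. Adamts3 differed by 1.01 (SE 0.18, adjusted p = 0.0056) and 0.70 (SE 0.17, adjusted p = 0.026) in the same order. Adamts1, a protease that also binds Vegfa, averaged -0.50 in treated db/db, -0.38 in untreated db/db and -1.51 in db/+ hearts, and both db/db groups were higher (adjusted p = 0.0037 and 0.0012). In treated db/db against db/+ controls, the proprotein convertases Furin (0.61, adjusted p = 0.024) and Pcsk5 (1.13, adjusted p = 0.048), which cut the precursors of Vegfc and Figf, passed as well, Pcsk5 being named after its values were seen. In all, 5 of the 16 tested genes of this list were higher in treated db/db hearts and 3 of 16 in untreated db/db hearts, and none was lower. Among all tested probes 4.49% and 4.37% were higher. The list's median difference was 0.35 and 0.24, beside 0.01 for all tested probes in each comparison. With slide as a term of the fit 0 of 16 passed in either comparison, and the medians were 0.30 and 0.096. With normexp and loess 3 of 16 were higher in treated db/db hearts, and 4 were higher and 1 lower (Mmp9, a matrix protease, -0.94, adjusted p = 0.042, named after its values were seen) in untreated db/db hearts, with medians of 0.14 and 0.26. Among all tested probes 5.15% and 11.2% passed with that normalization. Adamts3, Adamts1 and Furin passed there in both db/db groups (adjusted p 0.0092 to 0.049), Pcsk5 did not in treated db/db hearts (adjusted p = 0.16), and Ccbe1 missed the threshold at 0.53 (adjusted p = 0.054) in treated and 0.34 (adjusted p = 0.11) in untreated db/db hearts.

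The angiopoietin, apelin and Notch genes that act beside VEGF on vessels were mostly lower where they passed: 3 lower and 1 higher of 16 in treated db/db against db/+ controls, and 6 lower and 1 higher of 16 in untreated db/db against db/+ controls. Of all tested probes, 4.21% were lower and 4.49% higher in treated db/db hearts, and 3.39% and 4.37% in untreated db/db hearts. With slide as a term of the fit 0 of 16 passed in either comparison, where 0.0145% and 0.123% of all tested probes did. Aplnr, the apelin receptor of endothelial cells, was, relative to db/+ controls, 4.34-fold lower in treated db/db (log2 difference -2.12, adjusted p = 0.00017) and 3.77-fold lower in untreated db/db hearts (-1.91, adjusted p = 0.00028). Dll1, a Notch ligand, differed by -0.49 in treated and -0.47 in untreated db/db hearts (adjusted p = 0.012 in both), and Esm1, an endothelial proteoglycan known as a VEGF target, by -0.95 (adjusted p = 0.035) and -0.90 (adjusted p = 0.038). Hey1, a Notch target, and Apln, the ligand of Aplnr, passed in untreated db/db against db/+ controls (-0.48, adjusted p = 0.0098, and -1.31, adjusted p = 0.0058) and not in treated db/db hearts (-0.0085 and -0.29), but treated against untreated hearts did not pass either (0.47, adjusted p = 0.38, and 1.02, adjusted p = 0.39). Angptl4, a secreted inhibitor of lipoprotein lipase, was the 1 higher gene (2.12, adjusted p = 0.046, in treated db/db and 2.86, adjusted p = 0.010, in untreated db/db hearts). This list depended on the normalization. With normexp and loess 0 of 16 passed in treated db/db hearts, where 5.15% of all tested probes did. In untreated db/db hearts 2 were lower and 1 higher, where 11.2% of all tested probes passed. The list's median turned to 0.38 in treated and 0.25 in untreated db/db hearts, beside -0.09 and -0.21 as deposited. Aplnr missed the threshold there at -0.87 (adjusted p = 0.32) and -0.80 (adjusted p = 0.30). On the heart channel alone Aplnr differed by -2.53 (adjusted p = 4.6e-07) and -2.90 (adjusted p = 2e-07).

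**Figure D5:**
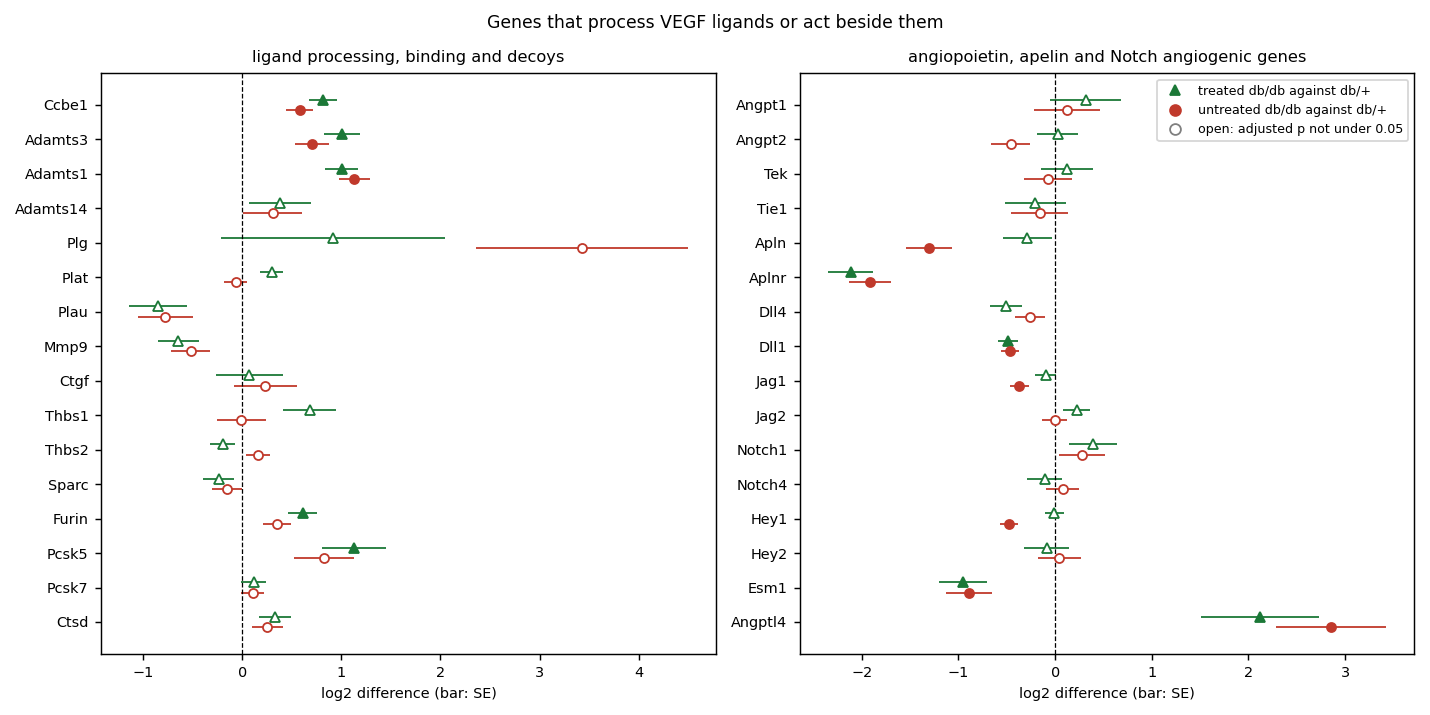
Log2 difference from db/+ hearts (x axis, bars SE) of the tested ligand-processing genes (left) and angiopoietin, apelin and Notch genes (right), with triangles for treated and circles for untreated db/db hearts, filled where the adjusted p was under 0.05. Ccbe1, Adamts3 and Adamts1 lie to the right of 0 in both groups, and Aplnr lies near -2 in both.

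In the rest of the pathway the counts depended on the normalization, as did the share of all tested probes that passed. With the deposited ratios, of 39 tested relays downstream of the receptors, 1 was higher (Pik3r1, a regulatory subunit of PI3-kinase, 0.92, adjusted p = 0.011) and 2 were lower (Sh2d2a, an adaptor of Kdr, -0.58, adjusted p = 0.018, and Nck1, -0.53, adjusted p = 0.044) in treated db/db against db/+ controls, a share near the 8.7% of all tested probes, and 0 of 39 passed in untreated db/db hearts. With normexp and loess 1 relay rose in treated db/db hearts, and 4 rose and 2 fell in untreated db/db hearts. That normalization called 5.15% and 11.2% of all tested probes in these 2 comparisons. Of 22 tested genes of oxygen sensing and Vegfa transcription, only Bnip3, a target of hypoxia-inducible factors, passed in treated db/db against db/+ controls (0.71, adjusted p = 0.039), and 0 of 22 passed in untreated db/db hearts, while with normexp and loess 4 were higher in treated db/db hearts and 2 higher and 1 lower in untreated db/db hearts. Of 11 tested semaphorins and plexins, which share the neuropilins, Plxna3 was lower in treated db/db hearts (-0.64, adjusted p = 0.025), and 0 of 6 PDGF family genes passed in either. In treated against untreated hearts, no gene of these lists passed, at a share of 0% of all tested probes.

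The counts of cell type markers stand beside the share of all tested probes that passed. That share was 8.7% in treated and 7.76% in untreated db/db against db/+ controls, and 0% in treated against untreated hearts. Against db/+ controls 4.49% and 4.37% were higher, and 4.21% and 3.39% lower. Of 19 blood endothelial markers, Ecscr was lower in treated (-0.45, adjusted p = 0.020) and untreated db/db hearts (-0.47, adjusted p = 0.013), and Cdh5 was among the 18 that did not pass. Their mean log2 ratio per sample was 4.38 to 4.60 in treated db/db, 4.02 to 4.98 in untreated db/db and 3.92 to 4.88 in db/+ hearts. Of 9 lymphatic markers, Foxc2 was higher in treated db/db hearts (0.40, adjusted p = 0.027), Prox1 did not pass, and the mean per sample was 2.97 to 3.26, 2.72 to 3.56 and 2.73 to 3.77 in the same order. The direction of both lists turned with the normalization. In untreated db/db against db/+ controls the median difference was -0.07 for blood and -0.09 for lymphatic endothelial markers as deposited, and 1.01 and 0.76 with normexp and loess, where 1 marker of each list was higher and 0 lower. That normalization called 11.2% of all tested probes in this comparison. Some markers of other tissues passed against db/+ controls. Of 6 tested fat cell markers, 2 fell and 0 rose in treated db/db hearts, and 1 rose (Lipe, hormone-sensitive lipase, 0.88, adjusted p = 0.0095) and 2 fell (Adipoq and Cfd) in untreated db/db hearts. Adipoq, made by fat cells, was above background on 0 of 5 treated, 1 of 5 untreated and 4 of 5 db/+ arrays. Cfd was so on 1, 3 and 5 of 5 in the same order. Both entered the test only through the db/+ arrays, which favours a lower call, so nothing was read from their fall. The mean of the 6 markers per sample, which includes them, was 1.35 to 1.62 in treated db/db, 1.39 to 2.95 in untreated db/db and 2.13 to 3.21 in db/+ hearts. Of 6 hepatocyte markers, 2 were higher than in db/+ controls in treated and 4 in untreated db/db hearts, with Hp, haptoglobin, at 2.66 (adjusted p = 0.0033) and 3.58 (adjusted p = 0.00028). Their means were 1.47 to 3.66 in treated db/db, 2.71 to 5.07 in untreated db/db and -0.05 to 1.99 in db/+ hearts, and Alb did not pass in either comparison. Cardiomyocyte markers, with 0 of 12 called in each comparison, averaged 6.45 to 6.88 in treated db/db, 5.03 to 7.25 in untreated db/db and 3.19 to 7.58 in db/+ hearts. The part of these tissues and cells in the levels of Vegfc, Figf, Pgf, Nrp1 and Nrp2 was not tested.

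For each member that passed, the 5 genes most alike over the 14 samples were taken by Pearson's r with its brightest probe, among 15186 other genes, as a description that includes the differences between groups. They were Pea15, M6pr, Tal1, Marcks and Nr3c1 for Vegfc (r of 0.96 to 0.94), Micall2, C330016O10Rik, Chrnb1, Sh3tc2 and Plxnd1 for Nrp2 (0.97 to 0.94), Slc10a6, Ptges2, Pcdh20, Tcf23 and Ubap1 for Pgf (0.92 to 0.89), Gtf3c3, 1110003O08Rik, Cds1, Gpd1 and Amica1 for Figf (0.91 to 0.87), and Isg20l1, 4632428N05Rik, Hspa14, Trim6 and Slc24a6 for Nrp1 (0.91 to 0.86). Plxnd1, a semaphorin receptor, differed by -0.56 in treated and -0.54 in untreated db/db against db/+ controls, and neither passed (adjusted p = 0.14 in both).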

How the data were processed

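RNA of 15 whole mouse hearts was hybridized by the authors to 2-colour Agilent 4x44K arrays, heart in Cy5 against a Stratagene universal mouse reference in Cy3, and scanned data were extracted with Agilent Feature Extraction 9.5.1 (per the labels) or 9.5.1.1 (per the file headers). The deposited values used here were the log10 ratio of heart to reference, background-subtracted and dye-normalized by that software, multiplied to the log2 scale, and the processed intensity of each channel. Of 45018 spots, 43379 were not controls. Spots with an outlier flag (0.922%) were left out and spots of 1 probe averaged. A probe was tested (27593 of 41174) where its heart signal was well above background on 4 or all 5 arrays in 1 or more groups. The 3 groups entered 1 fit (limma 3.58.1 in R 4.3.3, with version 1.17.8 of the data.table package), with Benjamini-Hochberg adjustment over all tested probes and a threshold of 0.05. Nothing in the labels says that replicates of a group are more than separate samples, while the paper describes 5 biological replicates per condition. The p-values measure the spread between the samples of a group. The authors' own significance analysis was not used.

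Treated replicates 3 and 4 were averaged because their heart channels were nearly the same. Named genes were all members, of each list up to 4 genes that passed by smallest p in a comparison and 1 marker that did not, and, for a member that passed, the genes most alike. Where a gene of a list had several probes, the brightest stood for it. Members and lists were chosen with earlier results of these data known. Alternatives were a threshold of 0.1, scaling between arrays, normexp (offset 50) with loess, looser and stricter filters, slide as a block, a replicate block, 2 groups per fit, separate treated replicates 3 and 4, the value table of the series, and leaving out samples. The procedure was run on simulated data with independent noise and no slide effect. That run cannot speak to the confounding of slide and group. Probe positions are mm8 as deposited, promoters are from RefSeq on GRCm38.p6. Plots used Python 3.11.15, numpy 2.4.6 and matplotlib 3.10.9. Arrays carry no read depth. The results are limited by the number of arrays, by signal near background and by slides largely confounded with group.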

Additional observations from a re-analysis of the deposited data

Results flagged for a closer look

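Over 30 groups of samples checked, 2 held a sample far from the rest, where chance gives about 1 in 20. The Flt4 log2 ratio of untreated db/db replicate 2 was 3.13, with the other untreated hearts between 2.29 and 2.50. The gap took 0.748 of the group's range, above the limit of 0.71 for 5 samples. On that array the Flt4 heart signal, 128, and the reference signal, 14.7, were both the lowest of the untreated arrays. On the heart channel alone this sample was the lowest of its group, at -4.04, so the high ratio went with a dim reference. The Nrp2 log2 ratio of untreated db/db replicate 3 was -2.17, with the others between -1.89 and -1.78 and a gap of 0.715 of the range. Without that heart the lower Nrp2 level in untreated db/db against db/+ hearts was -0.64 and its adjusted p 0.061.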

How the results depend on the processing

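Across single genes and alternatives, 545 of 637 values kept their direction and side of the threshold, 43 lost the call, 1 gained it and 48 changed sign. Most of the 637 values belonged to differences that had not passed and had no call to lose. Against db/+ controls, the call was lost in 13 of 21 alternatives for Nrp2 in treated db/db hearts and 11 of 22 for Nrp1 in untreated db/db hearts. The fewest losses were 1 of 22, for Pgf in untreated db/db hearts. Between treated and untreated db/db hearts 0 of the 18 probes passed under every alternative run. The count of 4 called probes in treated db/db against db/+ controls became 2 with normexp and loess, 0 with slide as a block, 1 with the replicate block, and 1 to 4 when a sample was left out (1 without treated replicate 3-4). The count of 4 in untreated db/db against db/+ controls became 0 with slide as a block, 2 with only these 2 groups in the fit, 2 on the heart channel alone, 3 with the replicate block, and 2 to 4 when a sample was left out (2 without untreated replicate 3). Normexp and loess kept 4 there, but these were Pgf, Nrp2, Kdr (1.83, adjusted p = 0.047) and Flt1 A_52_P307922 (1.31, adjusted p = 0.048), in place of Vegfc and Nrp1. The cause was not tested.

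Over all probes, normexp and loess gave 1421 calls instead of 2401 in treated db/db against db/+ controls, and 67.4% of calls instead of 51.6% were higher. In untreated db/db against db/+ controls it gave 3094 calls instead of 2141, and 67.9% instead of 56.3% were higher. Same-numbered samples did not deviate together (correlations from -0.18 to 0.058), so the numbers were not taken as pairs. The replicate block gave 1126 calls over all probes for untreated db/db against db/+ controls instead of 2141, and 984 in treated db/db against db/+ controls. Slide as a block gave 34 and 4. Only 2 groups in the fit gave 924 in untreated db/db against db/+ controls, and treated replicates 3 and 4 as separate samples 3753 in treated db/db against db/+ controls. The heart channel alone gave 56 calls in treated against untreated hearts instead of 0.

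Signs turned in the following brightest-probe differences, of which only that of Nrp1 in untreated db/db hearts had passed. With normexp and loess they were, in untreated db/db against db/+ controls, Vegfb 0.13, Figf -0.032, Flt4 0.36 and Nrp1 0.41, in treated against untreated hearts Vegfa -0.043 and Flt1 -0.0040, and in treated db/db against db/+ controls Flt4 0.27 and Nrp1 0.47. With slide as a block they were Vegfa -0.23 and Flt1 -0.21 in untreated db/db against db/+ controls, Vegfa -0.090, Vegfc 0.14, Pgf 0.064, Flt1 -0.051 and Kdr 0.41 in treated against untreated hearts, and Vegfa -0.32 and Flt1 -0.27 in treated db/db against db/+ controls. In treated against untreated hearts the replicate block gave Vegfa -0.0084, treated replicates 3 and 4 as separate samples gave Flt1 -0.0022, and leaving out db/+ replicate 3 and untreated replicate 2 gave Vegfa -0.012 and Kdr 0.086. On the heart channel alone Flt4 was 0.029 in untreated db/db against db/+ controls and 0.32 in treated db/db against db/+ controls, and in treated against untreated hearts Vegfa was -0.0020, Pgf 0.039, Kdr 0.25, Flt4 0.29, Nrp1 -0.081 and Nrp2 -0.018. Leaving out a sample moved untreated db/db against db/+ differences over -0.072 to 0.041 for Vegfb, -0.22 to 0.51 for Kdr and -0.25 to 0.087 for Flt4, treated against untreated ones over -0.049 to 0.058 for Vegfa, -0.051 to 0.072 for Flt1 and -0.30 to 0.086 for Kdr, and the treated db/db against db/+ one of Kdr over -0.29 to 0.45. The heart channel alone and outlier-flagged spots kept were chosen after seeing the data. Signal over background limits Flt4 and Flt1 A_52_P405145, whose reference was well above background on 6 and 3 of 15 arrays.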
